A study of Mus musculus with 18 samples.

Results

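Transcription factors of the cerebellar granule lineage were followed in cultured medulloblastoma cells and in whole mouse brains by RNA sequencing. The set held 9 genes, Atoh1, Barhl1, Zic1, Zic2, Zic4, Zic5, Meis1, Pax6 and Neurod1, found in the tables by gene symbol, in a choice made with earlier results of these data known. All 9 were listed in the table of 55183 genes for the cells and in the table of 19464 genes for the brains. Values are FPKM, a fragment number divided by gene length and library depth, so levels of different genes can be compared per unit of length.

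The study put PTCP53 304 cells, a mouse Sonic hedgehog (SHH) medulloblastoma line of the genotype Ptch1+/-; Trp53-/-, under vehicle or CT-179, a small molecule that inhibits OLIG2, itself a helix-loop-helix factor. The cells were taken after 24 h (culture day 1) or 144 h (culture day 6), which gave 4 groups of 3 libraries. Whole brains of Ptch1+/- mice, whose genotype label also holds the letters IR with no explanation, were dosed with vehicle or CT-179 from postnatal day 3 to postnatal day 15, again with 3 libraries a group. All groups thus carried a Ptch1+/- genotype, and only the cells lacked Trp53. No label ties the replicates to distinct animals or cultures. The p-values thus cover the spread among these samples alone, and that spread may be technical. The word vehicle also stands in the titles of brain libraries whose treatment label is CT-179, and every brain direction given here rests on the treatment label.

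Granule neurons, the most numerous neurons of the brain, arise from progenitors of the rhombic lip that divide in the outer layer of the young cerebellum under SHH from Purkinje cells, and these progenitors are a known cell of origin of SHH medulloblastoma. Atoh1 encodes the basic helix-loop-helix factor that specifies them, Barhl1 a homeobox factor of the same lineage, and Neurod1 a basic helix-loop-helix factor of their differentiation into neurons. The Zic genes encode zinc finger factors, Pax6 a paired box factor and Meis1 a homeobox factor that acts with PBX partners, all known in granule progenitors.

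The promoters of Atoh1 and Barhl1 are shown first because these genes were near 0 in the cells and were read in every brain library. Neurod1 had the same pattern, but its window overlaps annotated exons and is not printed. Helix-loop-helix factors such as ATOH1, NEUROD1 and OLIG2 bind E-boxes, searched here as CANNTG, a motif that reads the same on both strands. The windows are the 250 bases before a start in RefSeq (GRCm38.p6, the mm10 genome), written 5′ to 3′ along the gene's strand with E-boxes in capitals. The Atoh1 window lies at chr6:64728875-64729124 on the plus strand, and the windows of 2 starts of Barhl1 lie on the minus strand at chr2:28916669-28916918 and chr2:28912496-28912745.
Atoh1: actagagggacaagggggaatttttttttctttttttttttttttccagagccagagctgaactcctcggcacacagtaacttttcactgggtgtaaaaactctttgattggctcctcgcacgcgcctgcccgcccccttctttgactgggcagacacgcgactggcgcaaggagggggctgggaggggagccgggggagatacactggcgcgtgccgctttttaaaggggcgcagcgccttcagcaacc
Barhl1, upstream start: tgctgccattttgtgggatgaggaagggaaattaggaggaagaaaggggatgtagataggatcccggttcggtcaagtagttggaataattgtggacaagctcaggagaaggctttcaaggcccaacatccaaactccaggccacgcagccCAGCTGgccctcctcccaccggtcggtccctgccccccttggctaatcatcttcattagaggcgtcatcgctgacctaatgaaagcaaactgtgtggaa
Barhl1, downstream start: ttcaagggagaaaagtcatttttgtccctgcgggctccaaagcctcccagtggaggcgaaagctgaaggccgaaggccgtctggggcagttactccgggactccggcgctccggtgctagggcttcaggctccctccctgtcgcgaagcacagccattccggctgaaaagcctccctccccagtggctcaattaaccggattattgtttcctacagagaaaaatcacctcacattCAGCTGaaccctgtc
The Atoh1 window held no E-box and each Barhl1 window held 1, in the form CAGCTG. RefSeq windows matched 8 of the 9 members, with 10 windows in all. An E-box stood in 8 of these 10 windows and in 66.2% of all 32851 promoter windows of the same length. The CAGCTG form stood in 2 of the 10, both of Barhl1, and in 13% of all windows, and CAGATG (or CATCTG, the same on the other strand) stood in 0 of the 10 and in 14.4% of all. Both forms are kinds of CANNTG. The GLI motif GACCACCCA, searched on both strands, stood in 0 of the 10 and in 0.225% of all. A match describes letters in a window and not a bound site.

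The depth implied by the FPKM values was 29500000 to 70900000 reads in the cell libraries and 17700000 to 63300000 in the brain libraries. Among the cells, replicate 2 of CT-179 at 144 h stood apart, with a Pearson correlation of 0.941 to 0.943 to its group, against 0.996 or more between all other cell libraries of 1 group. Among the brains, vehicle replicate 2 was the shallowest and had 12.5% of its length-weighted FPKM in Lars2 and Gm15564, against 0.0638% to 0.0731% in the other 5. Results are given with and without these libraries where they differ. Of the 12 granule neuron markers, Gabra6, Neurod2, Cntn2 and Fat2 were under 0.1 FPKM in every cell library. In each cell group 3 of the 12 had a mean of at least 1 FPKM, among them Etv1 (13.3 to 18.2 FPKM) and Chn2 (2.45 to 2.75 FPKM), and the list summed to 15.7 to 24.8 FPKM against 1046 to 1315 FPKM in the brains. In the cells the 5 microglial markers summed to at most 0.251 FPKM. In the brains, the granule neuron gene Gabra6 averaged 76.1 FPKM and the Purkinje cell gene Pcp2 163 FPKM with vehicle. The forebrain gene Tbr1 was low there (0.472 FPKM), and the 7 forebrain markers summed to 3.81 to 14.1 FPKM over the 6 libraries labelled whole brain, against 16.6 to 24.1 FPKM in the cells. Forebrain markers were thus low and cerebellar markers high for the label whole brain, which is used here only as the label.

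The helix-loop-helix factors Atoh1 and Neurod1 and the homeobox factor Barhl1 were not read above the floor in the cells. Atoh1 (mm10 chromosome 6, 64729125 to 64731245, plus strand) lay between 0 and 0.0254 FPKM over the 12 cell libraries, which is 0 to 2 implied reads a library and 6 in all. Barhl1 (chromosome 2, 28907679 to 28916668, minus strand) lay between 0 and 0.0115 FPKM, with at most 1 implied read a library. Neurod1 (chromosome 2, 79452521 to 79456751, minus strand) lay between 0 and 0.0329 FPKM, with at most 2 implied reads a library. A floor of 3 reads corresponds to 0.0266 to 0.0638 FPKM for Atoh1, 0.0145 to 0.0347 for Barhl1 and 0.0207 to 0.0496 for Neurod1, so no library passed it for any of these genes, which counts sampling error only. Neither CT-179 nor the longer culture brought a library of these 3 genes over that floor. Their relatives were low as well, with Barhl2 at 0.14 to 0.481 FPKM in the 4 group means and Neurod2 at 0 in both 24 h groups.

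The other 6 members were read in all 12 cell libraries. Zic1 (chromosome 9, 91358058 to 91365810, minus strand) was the highest at 16.1 ± 0.379 FPKM with vehicle at 24 h (SD, n = 3), above 80.7% of 21709 protein-coding genes. Zic2 (chromosome 14, 122475435 to 122479852, plus strand) followed at 11.3 ± 0.804 FPKM and Meis1 (chromosome 11, 18879817 to 19018985, minus strand) at 5.59 ± 0.252 FPKM. Pax6 (chromosome 2, 105668900 to 105697364, plus strand) stood at 4.55 ± 0.0937 FPKM, Zic5 (chromosome 14, 122456795 to 122465677, minus strand) at 2.31 ± 0.152 FPKM and Zic4 (chromosome 9, 91362413 to 91389348, plus strand) at 0.591 ± 0.116 FPKM. No neighbours in this order of 6 overlapped in range. Zic1 and Zic4 are neighbours on opposite strands whose exons overlap by 60 bases, and exons of Meis1 and Neurod1 also overlap other annotated genes. The strand of counting is not given in the sources used here, so shared reads cannot be told apart, and for Zic4, at 3.67% of Zic1 in the same libraries, this leaves its low level uncertain.

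**Figure D1:**
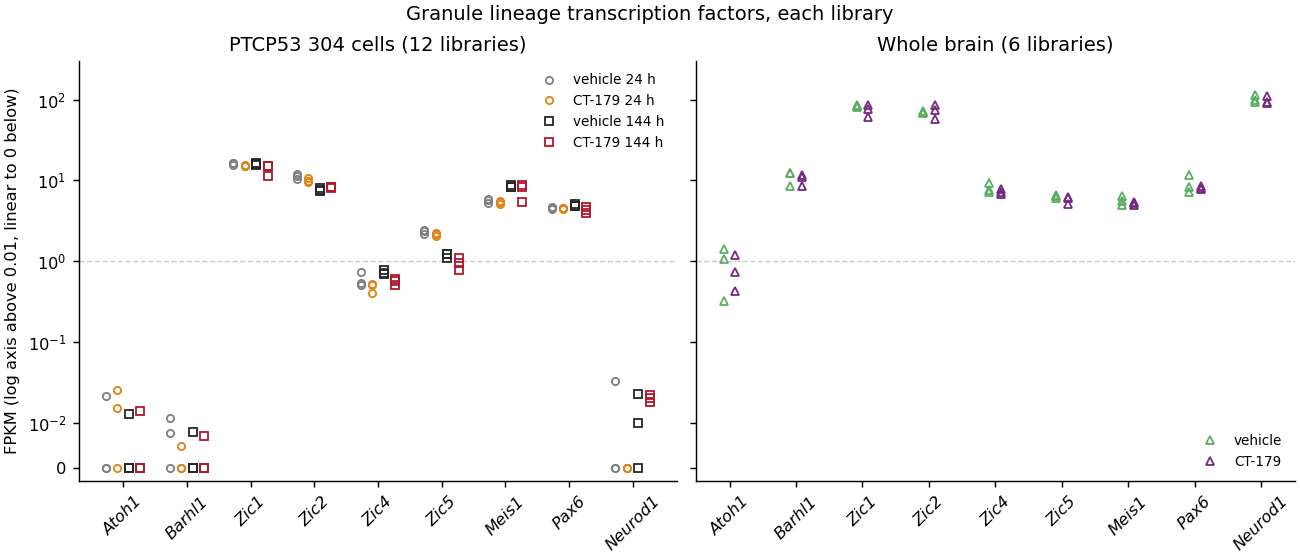
FPKM of the 9 members in each library, on an axis that is logarithmic above 0.01 FPKM and linear down to 0, for the 4 cell groups (left) and the 2 brain groups (right); the dashed line marks 1 FPKM. Atoh1, Barhl1 and Neurod1 lie under 0.05 FPKM in every cell library, and Neurod1 lies between 90.1 and 115 FPKM in the brains.

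In the brains all 9 members were read, in another order. The 2 tables were normalized apart, so levels across them are set side by side without a test. Neurod1 was the highest member, at 115, 94.5 and 98.7 FPKM with vehicle, where the cells had at most 0.0329. Zic1 stood at 85.3, 80.1 and 82.8 FPKM and Zic2 at 72.1, 67.4 and 70.6 FPKM with vehicle, above 95.4% and 94.4% of the 14912 protein-coding genes of that table. These 3 stood well clear of the other 6. Barhl1 (11.1 ± 2.25 FPKM), Pax6 (9.02 ± 2.32), Zic4 (8.02 ± 1.09), Zic5 (6.36 ± 0.282) and Meis1 (5.63 ± 0.678) lay between (SD, n = 3 each), and the ranges of Barhl1 and Pax6, of Pax6 and Zic4, and of Zic5 and Meis1 overlapped. Atoh1 was the lowest at 0.321, 1.41 and 1.07 FPKM. Meis1 was the one member whose vehicle level in the cells at 144 h (8.43 ± 0.275 FPKM) was above that in the brain.

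Time in culture was the comparison in which members passed the test. Of the 9 members, 5 reached 1 FPKM in at least 3 cell libraries and were tested with limma on log2(FPKM + 1) (Zic1, Zic2, Zic5, Meis1 and Pax6). With vehicle, from 24 h to 144 h, 1 of the 5 was higher and 2 were lower at an adjusted p under 0.05, where 34.1% of all 12510 genes were higher and 32.4% lower. With 5 genes, these counts do not stand apart from that background. Zic2 was at 12.1, 11.4 and 10.5 FPKM at 24 h and at 8, 7.42 and 7.55 FPKM at 144 h. No library overlapped, with the later group lower, a pattern of 42.9% of all genes. The fall was -0.51 on the log2 scale (SE 0.07, limma adjusted p = 4.4e-05). Zic5, whose gene lies next to Zic2 on the opposite strand, was at 2.36, 2.43 and 2.14 FPKM and then at 1.24, 1.23 and 1.09 FPKM. It fell by 0.60 on log2(FPKM + 1) (SE 0.07, limma adjusted p = 2.4e-05). The added 1 shrinks changes of low genes, so the fall of the Zic5 means, from 2.31 to 1.19 FPKM, was larger than this value reads. The log2 changes of Zic2 and Zic5 are thus not comparable in size.

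Meis1 moved the other way with vehicle, from 5.8, 5.66 and 5.31 FPKM at 24 h to 8.34, 8.74 and 8.21 FPKM at 144 h. All 144 h libraries were above all 24 h libraries, a pattern of 44.6% of all genes. The rise was 0.52 (SE 0.13, limma adjusted p = 0.0048). Zic1, at 16.1 FPKM in both groups, had a log2 change of 0.00 with a 95% interval of -0.20 to 0.20. Pax6 had 0.08 (95% interval -0.06 to 0.22, limma adjusted p = 0.26), and its 144 h libraries were also all above its 24 h libraries. Zic1 and Pax6 thus differed in time by less than the test could tell, within those intervals. Mki67, a marker of dividing cells, averaged 66.3 FPKM at 24 h and 4.19 FPKM at 144 h with vehicle, and the lists of other cell types moved as well. Of 8 Bergmann glia and astrocyte markers 7 were tested and 6 rose (median 2.55), with Gfap, an astrocyte filament gene, at 0.411 FPKM at 24 h and 93.7 FPKM at 144 h. Of 7 neuron markers 4 were tested and 3 rose (median 1.59), with Tubb3, a neuronal tubulin gene, at 0.371 FPKM and 16.9 FPKM. Of all genes 34.1% were higher and 32.4% lower. These lists had the largest median rises among the cell type lists with tested genes. Of the oligodendrocyte lineage markers 3 rose and 3 fell, of the meningeal markers 2 and 2, and of the forebrain markers 0 and 2. Of the Purkinje cell markers 1 rose and 1 fell, and of the cerebellar interneuron markers 2 rose and 0 fell. The part of these markers in the changes of the members was not tested.

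Under CT-179 the time comparison called Meis1 higher and Zic2 and Zic5 lower, 1 and 2 of the 5, where 33.2% of all genes were higher and 32.1% lower. It shares no library with the comparison in vehicle, but both come from 1 fit with a shared estimate of the spread. The same cell line and time points were used, so it is not an independent repeat. Zic2 was at 9.54, 9.73 and 10.6 FPKM at 24 h and at 8.23, 8.25 and 8.04 FPKM at 144 h, and fell by 0.25 (SE 0.07, limma adjusted p = 0.0055). Zic5 was at 2.21, 2.05 and 2.17 FPKM and then at 0.955, 0.777 and 1.09 FPKM. It fell by 0.70 on log2(FPKM + 1) (SE 0.07, limma adjusted p = 7.2e-06), a value made smaller by the added 1. Meis1 was at 5.63, 5.12 and 5.44 FPKM and then at 8.19, 5.44 and 8.76 FPKM, where replicate 2, the library that stood apart, lay within the 24 h range. Its rise was 0.38 (SE 0.13, adjusted p = 0.024), was 0.57 without that library (adjusted p = 3.8e-07), and did not pass in a fit of the 2 groups alone (adjusted p = 0.11) or with TPM scaling (0.36, adjusted p = 0.14). It also missed the threshold without CT-179 24 h replicate 2 or 3, or without CT-179 144 h replicate 1 or 3 (adjusted p = 0.055 to 0.09).

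**Figure D2:**
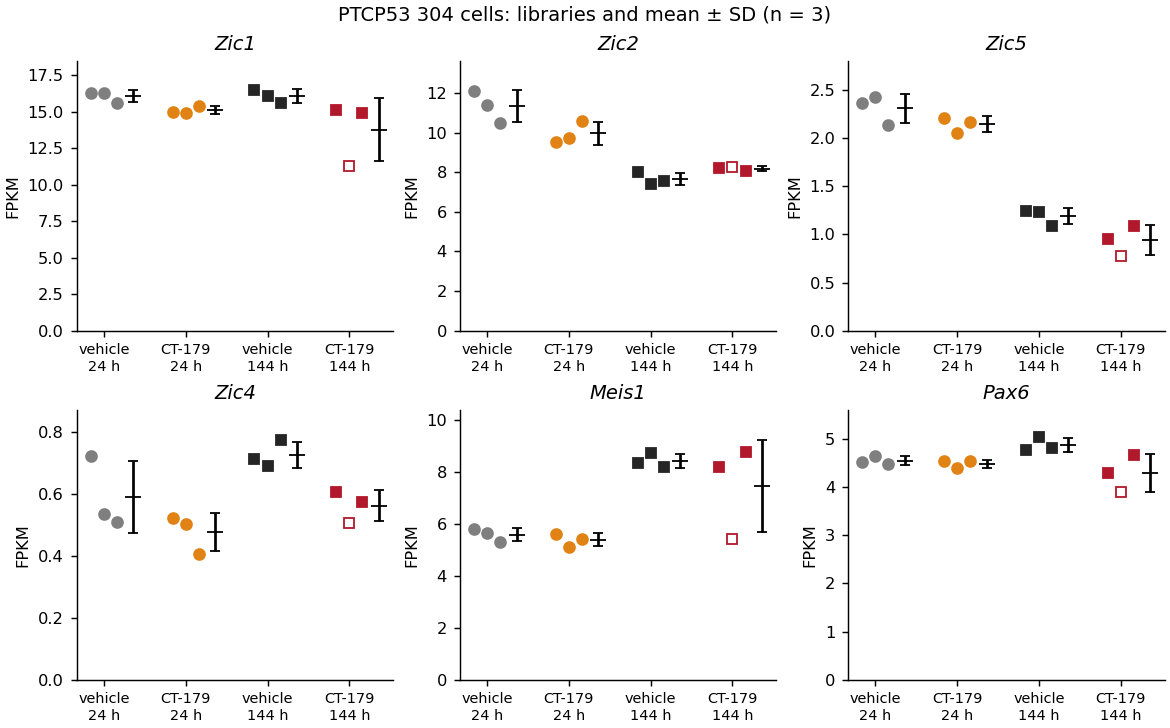
FPKM of the 6 members read in the cells, by group, with each library as a point and the mean ± SD (n = 3) beside it; the open square is CT-179 144 h replicate 2. Zic2 and Zic5 are lower and Meis1 higher at 144 h with vehicle, and the open square is the lowest of its group for Zic1, Zic4, Zic5, Meis1 and Pax6.

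The CT-179 comparison at 24 h asked what the inhibitor does early. None of the 5 members passed, where 0.264% of all 12510 genes did, and 640 genes had an unadjusted p under 0.05. Zic2 was at 9.54, 9.73 and 10.6 FPKM with CT-179 and at 12.1, 11.4 and 10.5 FPKM with vehicle, a log2 change of -0.17 (95% interval -0.32 to -0.03, limma adjusted p = 0.74). CT-179 replicate 3 overlapped the vehicle range. Zic1 was at 15, 14.9 and 15.4 FPKM with CT-179 and at 16.3, 16.3 and 15.6 FPKM with vehicle. It was the 1 tested member of lower level whose groups did not overlap, a pattern of 22.9% of all genes. Meis1, Pax6 and Zic5 had changes of -0.04, -0.02 and -0.07. Without the library that stood apart at 144 h, whose values enter the spread shared by all groups, 1 of 5 members was lower at 24 h, where 14.1% of all genes were. That was Zic2, with the same change of -0.17 (adjusted p = 0.034), a call lost when median-of-ratios scaling was added (-0.14, adjusted p = 0.056).

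At 144 h none of the 5 members passed either, where 3.88% of all genes did. Zic1 was at 15.1, 11.3 and 14.9 FPKM with CT-179 and at 16.5, 16.1 and 15.6 FPKM with vehicle, a log2 change of -0.22 (SE 0.09, limma adjusted p = 0.16). Pax6 was at 4.3, 3.9 and 4.67 FPKM with CT-179 and at 4.77, 5.03 and 4.82 FPKM with vehicle (-0.15, adjusted p = 0.16). Zic5 was at 0.955, 0.777 and 1.09 FPKM with CT-179 and at 1.24, 1.23 and 1.09 FPKM with vehicle (-0.18, adjusted p = 0.16). The lowest library of these 3 genes was always replicate 2, and Meis1 in that library, at 5.44 FPKM, was well below the 8.19 and 8.76 FPKM of its group. Of the 5 tested, 3 members were lower without overlap (Zic1, Zic5 and Pax6), a pattern of 27% of all genes, and 1 was higher without overlap (Zic2), a pattern of 19.1%.

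Zic2 alone of the 5 had a positive change at 144 h, at 8.23, 8.25 and 8.04 FPKM with CT-179 and 8, 7.42 and 7.55 FPKM with vehicle (0.08, 95% interval -0.06 to 0.23, limma adjusted p = 0.32). Its sign turned with TPM scaling (-0.09) and with a correction for gene length (-0.01). With that length correction Meis1 and Pax6 also changed sign, to 0.13 and 0.19, and no member passed. Zic4, under the 1 FPKM minimum, was at 0.607, 0.507 and 0.574 FPKM with CT-179 and at 0.715, 0.69 and 0.774 FPKM with vehicle. Its change on log2(FPKM + 1) was -0.14, also made smaller by the added 1 (limma adjusted p = 0.27 when all genes were tested). Without replicate 2, 1 of 5 members was lower, where 16.9% of all genes were: Zic1, at a mean of 15 FPKM, with a change of -0.10 (adjusted p = 0.044). That call was lost when median-of-ratios scaling was added (-0.07, adjusted p = 0.086). Meis1 had 0.01 without replicate 2.

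The CT-179 effect at 144 h was set against the one at 24 h in an interaction test. None of the 5 members differed, where 0% of all genes did (574 at an unadjusted p under 0.05). Zic2 had the widest gap, 0.26 (95% interval 0.05 to 0.46, unadjusted p = 0.019, limma adjusted p = 0.69), since its CT-179 libraries were all below the vehicle mean at 24 h and all above it at 144 h. Without the library apart the gap was 0.25 (adjusted p = 0.12), and again none of the 5 passed, where 2.66% of all genes did.

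**Figure D3:**
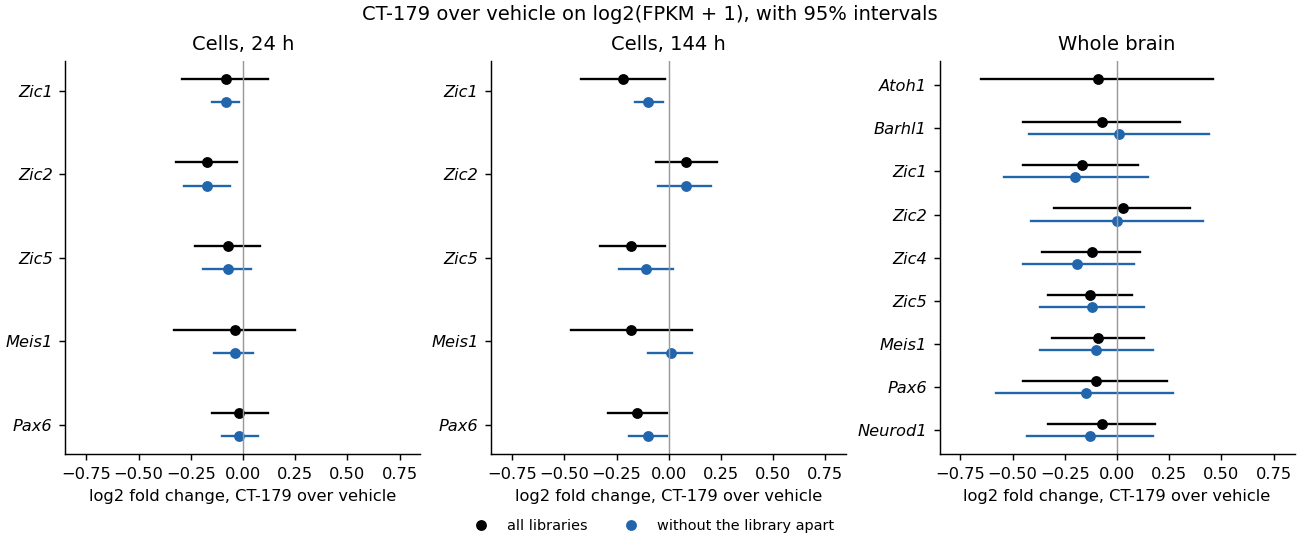
Log2 fold change of CT-179 over vehicle on log2(FPKM + 1) for the tested members in cells at 24 h, in cells at 144 h and in whole brain, with 95% intervals of single genes, for all libraries (black) and without the library that stood apart (blue). In the brain panel every interval crosses 0, and in the cells Zic1 at 144 h moves from -0.22 to -0.10 without that library.

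In the whole brains CT-179 was compared with vehicle for all 9 members. None passed, where 0% of all 13422 genes did (490 at an unadjusted p under 0.05). The log2 changes ran from -0.17 for Zic1 to 0.03 for Zic2, 8 of the 9 were negative, and all 9 pairs of groups overlapped (limma adjusted p = 0.97 to 0.99). The median over the members was -0.09 and over all genes 0.02. The members were read in the same libraries, so their signs do not count as independent, and the share of negative changes over all genes is not given here. The 95% intervals set how large a change on log2(FPKM + 1) could have been missed: -0.65 to 0.46 for Atoh1, -0.45 to 0.30 for Barhl1, -0.33 to 0.18 for Neurod1 and -0.45 to 0.10 for Zic1. On this scale the added 1 shrinks changes of low genes. Atoh1 averaged 0.936 FPKM with vehicle, so its interval understates the change in FPKM that could have been missed. In bulk tissue, fewer cells of a type and less RNA per cell cannot be told apart. Without vehicle replicate 2, 8 members were tested, since Atoh1 then missed the 1 FPKM minimum. None of the 8 passed, where 0.00754% of all genes did, and 6 of the 8 changes were negative. In the authors' deposited table, which gives vehicle over CT-179, the false discovery rate was 1 for each of the 9 members, and 17 genes of the table were under 0.05. Across genes, the fold change of that table had a Pearson correlation of 0.975 with vehicle replicates 1 and 3 over CT-179 and of 0.555 with all 3 vehicle replicates, so its groups appear to differ from the 3 against 3 used here.

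Among the brains of 1 group, Atoh1 varied the most for its level. It was at 0.321, 1.41 and 1.07 FPKM with vehicle and at 0.426, 0.744 and 1.18 FPKM with CT-179, which is 27 to 95 implied reads a library. The lowest library of each group was replicate 1, and the groups overlapped fully. Barhl1 had the same lowest libraries, with 8.48, 12.4 and 12.3 FPKM with vehicle and 8.58, 11 and 11.7 FPKM with CT-179. Vehicle replicate 1 was also the lowest of the 6 libraries in 9 of 14 genes of a list of granule progenitor and SHH response genes, and CT-179 replicate 1 in the other 5, against 16.9% and 28.3% of all tested genes. Mki67 stood at 1.12, 3.08 and 3.22 FPKM with vehicle and 1.84, 1.35 and 2.96 FPKM with CT-179, and the SHH target Gli1 at 2.86, 5.24 and 4.74 FPKM and 2.7, 3.44 and 4.23 FPKM. The part of these genes in the Atoh1 and Barhl1 values was not tested.

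CT-179 replicate 1 was the lowest of the 6 brain libraries for 6 of the 9 members, against 28.3% of all tested genes. It was also the lowest for 6 of 12 granule neuron genes, 5 of 9 Purkinje cell genes and 7 of 18 other transcription factors of the lineage. A low value in this library was thus not particular to the members. Zic1 was at 60.9, 84.6 and 76.1 FPKM with CT-179, and replicate 1 was below all vehicle libraries. Zic2 was at 56.9, 86.4 and 73.9 FPKM, so that replicate 1 was the lowest and replicate 2 the highest of all 6 libraries. The granule neuron gene Gabra6 had the same lowest library, with 50.8, 87 and 70.3 FPKM with CT-179 and 95.7, 63.5 and 69.1 FPKM with vehicle. Pax6 differed, with its highest value, 11.6 FPKM, in vehicle replicate 3 and 7.2 and 8.21 FPKM in the other vehicle libraries. Neurod1 was at 90.1, 110 and 93 FPKM with CT-179, within or just below the vehicle range of 94.5 to 115 FPKM.

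**Figure D4:**
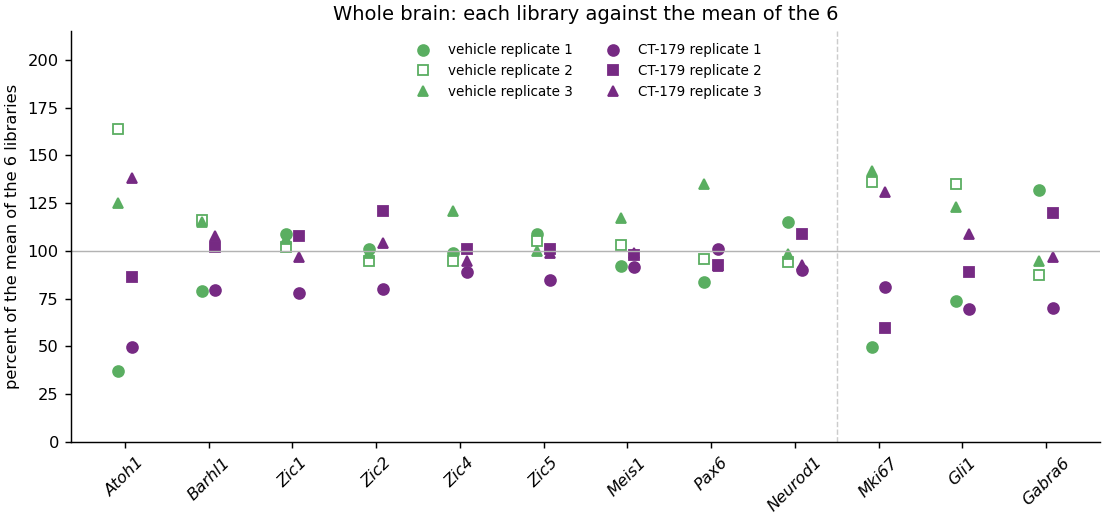
Each brain library as percent of the mean of the 6 libraries, for the 9 members and for Mki67, Gli1 and Gabra6 to the right of the dashed line; the open square is vehicle replicate 2. Atoh1 spans 37.3% to 164% of its mean and is low in replicate 1 of both groups, while Zic1 and Zic2 are low in CT-179 replicate 1 (77.8% and 79.9%).

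Ratios within a library do not depend on the scaling of the library. Zic2 over Zic1 was 74.2%, 70.1% and 67% with vehicle at 24 h, 63.7%, 65.1% and 68.7% with CT-179 at 24 h, 48.5%, 46% and 48.3% with vehicle at 144 h and 54.5%, 72.9% and 54.1% with CT-179 at 144 h. In the brain it was 84.5%, 84.1% and 85.2% with vehicle and 93.4%, 102% and 97.2% with CT-179. The CT-179 libraries were above the vehicle libraries without overlap at 144 h and in the brain, also when the library apart was left out, and overlapped them at 24 h. With 3 libraries against 3 the exact two-sided permutation test cannot go below 0.1, the value at 144 h and in brain (0.3 after Benjamini-Hochberg adjustment over 9 ratio comparisons), so it could not pass 0.05. Zic5 over Zic2 had a mean of 20.4% with vehicle at 24 h, 15.5% with vehicle at 144 h and 11.5% with CT-179 at 144 h, where the treated libraries were lower without overlap (exact permutation p = 0.1, adjusted p = 0.3), and of 9.08% in vehicle brains. Of the 9 ratio comparisons 3 did not overlap, all of them with Zic2 in the ratio, and no share over all gene pairs was computed. Ratios of other member pairs were also formed and not tested. Among these, Pax6 over Zic1 at 24 h did not overlap either (27.7% to 28.6% with vehicle, 29.4% to 30.3% with CT-179). The remaining comparisons of CT-179 with vehicle in those pairs overlapped. Zic4 over Zic1 was 2.65% to 4.96% in the cells and 8.86% to 11.2% in the brains.

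**Figure D5:**
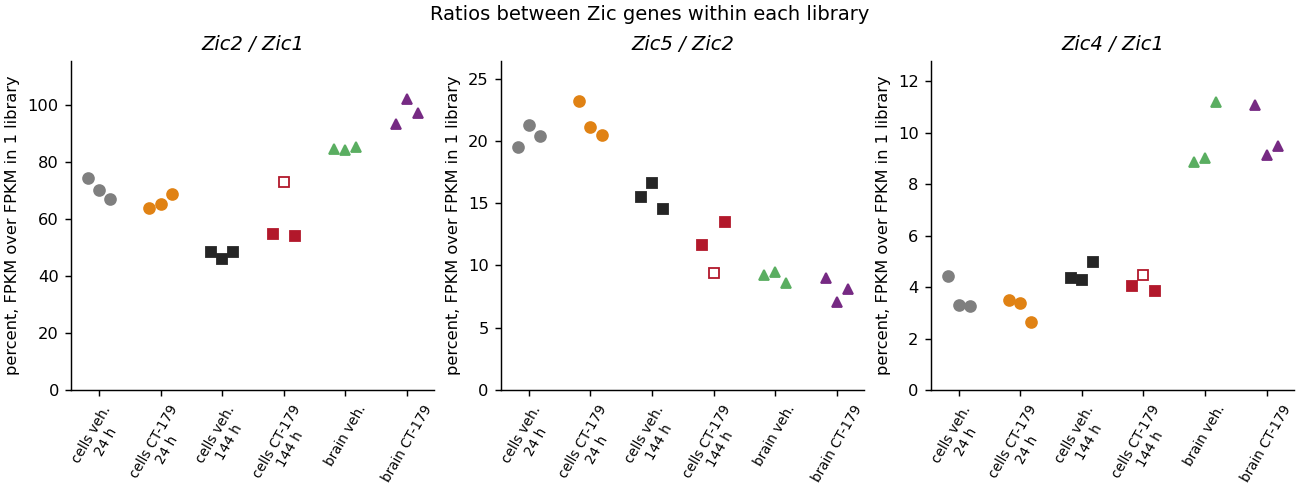
Ratios of FPKM between Zic genes within each library, in percent, for the 6 groups; the open square is CT-179 144 h replicate 2. Zic2 over Zic1 lies at 46% to 48.5% with vehicle at 144 h and at 54.1% to 72.9% with CT-179, and at 84.1% to 85.2% and 93.4% to 102% in the brains.

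Related genes were counted from 4 lists, 1 of cofactors and 3 of the granule lineage. In the time comparison with vehicle, their counts are read against the 34.1% of all genes that were higher and the 32.4% that were lower, and several lie near those shares. Of 13 cofactors (E proteins such as Tcf4 and Tcf12, PBX partners, and the ID and HES inhibitors of helix-loop-helix factors), all were tested in the cells, and with vehicle 6 rose and 3 fell over time. Id4 rose by 2.84 and Hes5 by 2.79, and Pbx3, a partner of MEIS1, fell by 0.89 on the log2 scale (limma adjusted p = 3.4e-07 or less in each). The list's median was 0.49 and that of all genes 0.01. Of 14 granule progenitor and SHH response genes, 12 were tested, 6 rose and 4 fell over time with vehicle. Gli1 rose by 2.63 and Mycn by 1.56, while the cyclin genes Ccnd1 and Ccnd2 fell by 2.86 and 3.37. Of 18 other transcription factors of the lineage, 11 were tested, 5 rose and 3 fell, with Nfia at 0.47 and Sox11 at -0.82. Of 12 granule neuron genes only 4 were tested, of which Slc17a7 rose by 1.41 and Grin2c fell by 1.38.

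CT-179 was read over the same lists. At 24 h 0 of the 12 progenitor and SHH genes, 0 of the 11 other factors, 0 of the 4 granule neuron genes and 0 of the 13 cofactors passed. Of all genes 0.264% did, so these counts do not stand apart from that background. At 144 h Gli1 fell, with 20.4 ± 0.89 FPKM in vehicle cells and 11.1 ± 1.51 FPKM in treated cells (SD, n = 3 each, log2 change -0.83, limma adjusted p = 0.0016). No other gene of the 4 lists passed, where 3.88% of all genes did. Id3 had a change of 0.76 (adjusted p = 0.085) at 144 h, with 188 FPKM in replicate 2 and 94.6 and 97.4 FPKM in the other CT-179 libraries. In the brains 0 of the list genes passed, where 0% of all genes did. Without the library apart, 6 of 12 progenitor and SHH genes, 2 of 11 other factors, 1 of 4 granule neuron genes and 2 of 13 cofactors were lower at 24 h, where 14.1% of all genes were. At 144 h 11.8% of all genes were then higher and 16.9% lower. Of the progenitor and SHH genes 3 were higher and 6 lower, of the other factors 1 was lower, of the granule neuron genes 2 were lower, and of the cofactors 2 were higher and 2 lower.

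The genes most like a member across libraries were named by Pearson correlation of log2(FPKM + 1), as a description. Other members and unnamed gene models were left out of this ranking, so closer genes may exist among them. Over the 12 cell libraries, which share groups and the library apart, Zic5 was followed most closely by Utp15 (r 0.995), Ubqln4 (0.995) and Rtel1 (0.993), and Meis1 by Gnpda1 (0.992), Nxpe4 (0.991) and Endov (0.991). For Zic1 they were Bcl9 (0.992), Trio (0.988) and Ern1 (0.985), and for Zic2 Cchcr1 (0.966), Rhbdf1 (0.964) and Tor1b (0.957). Over the 6 brain libraries, Atoh1 was followed most closely by Dyrk1a (0.987), Apc2 (0.984) and the replication gene Cdc45 (0.983).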

How the data were processed

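Gene-level FPKM values for 12 cell and 6 brain libraries were used as the authors deposited them, in 2 tables normalized apart. The tools named per the submitters' processing notes are STAR 2.6.0c, Trim Galore 0.5.0, edgeR 3.28.1 with R 3.6, and HTSeq 0.6.1p2, beside the mm10 genome, with no roles stated. The authors deposited a brain comparison with a log2 fold change, a likelihood ratio score and p-values, per the file headers. Which counting strand was used is not given in the sources used here.

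FPKM are not counts, so log2(FPKM + 1) was fitted with limma 3.58.1 (R 4.3.3) for genes at 1 FPKM or more in at least 3 libraries, with one mean per group, a trended prior, the cell groups in 1 fit and the brain groups in another, and Benjamini-Hochberg adjustment over all genes (threshold 0.05). The added 1 FPKM shrinks the log2 changes of genes at low levels, so these changes are not log2 ratios of FPKM. Intervals are 95% intervals of single genes, not adjusted. Low values were near whole multiples of 1 read in 89.2% to 91.1% (cells) and 93% to 97.7% (brain) of values, to within 0.1 read, which gave the implied reads, used only as a description. Exonic lengths from the annotation were found for 99.4% and 99.8% of genes. Tested on simulated data, the fit recovered 99% of 200 genes changed by 1 on the log2 scale in the vehicle cell time comparison (11961 genes). It recovered 88% of 200 such genes in the brain (13429 genes). The percent of calls that were false was 5.71 in the cells and 3.83 in the brain. The simulated spread of a gene was the median of its group SDs, so the wider spread of the group with the library apart was left out. Only genes above a minimum mean level were changed. Recovery with that wider spread, of low genes, of smaller changes, and of CT-179 effects in the cells, was not tested.

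The members and the lists were chosen with earlier results of these data known. Text names all members, up to 4 genes of a list with the smallest p, and the 3 genes most like a member, other members and unnamed gene models left out. Mki67, Id3, the marker genes given as levels and the genes set beside the brain results were chosen after their values were seen. Replicate numbers were checked by the correlation of same-numbered libraries' deviations from their group means. Only CT-179 at 24 h and 144 h had every value over 0.1 (0.11, 0.24 and 0.14), and the block changed no member's call there. The value of 0.24 includes the library that stood apart. Differently numbered libraries of these groups reached 0.15, so the values do not show a pairing. Alternatives were another pseudocount (0.1), no filter, TPM scaling, median-of-ratios scaling, a replicate block, a length correction, separate fits and leaving out each library.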

Additional observations from a re-analysis of the deposited data

Results flagged for a closer look

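The estimated change of Zic2 with CT-179 in the cells was -0.17 at 24 h and 0.08 at 144 h, the latter with a 95% interval that includes 0 (-0.06 to 0.23). All 3 CT-179 libraries were below the vehicle mean at 24 h and all 3 were above it at 144 h, a difference of 0.26 on the log2 scale. That pattern is what set the flag, so it is no added support, and its share over all genes was not computed. The difference itself, tested as an interaction term, did not pass (limma adjusted p = 0.69), nor did it without CT-179 144 h replicate 2 (0.25, adjusted p = 0.12). With TPM scaling both changes were negative (-0.23 and -0.09), as they were with length correction (-0.18 and -0.01).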

How the results depend on the processing

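With vehicle, the time calls of Zic2, Zic5 and Meis1 held under every alternative run, and Pax6 also passed with CT-179 144 h replicate 2 left out and median-of-ratios scaling (0.11, limma adjusted p = 0.018). Of 351 values of members with 1 library left out, 336 kept direction and side of the threshold, and of 257 under other settings 236 did. With one mean per group, leaving out a library of a group outside a comparison cannot turn its direction. The first count thus holds values whose direction was fixed in advance. Values that rounded to no change were counted as keeping direction. Members called with CT-179 in the cells ranged from 0 to 1 at 24 h and at 144 h with 1 library left out. Over all genes, the 24 h count (33) was 20 with median-of-ratios scaling, 2 with the replicate block, 1996 in a separate fit, 3047 with replicate 2 left out and median-of-ratios scaling, and 1 to 2762 with 1 library left out. The 144 h count (486) was 301 with the block, 0 in a separate fit, 3778 with that library left out and rescaled, and 122 to 3580 with 1 left out. The difference between times (0) gave 28 with no filter, 1 with TPM, 2 with median-of-ratios, 10 with length correction, 329 left out and rescaled, and 0 to 331 with 1 left out. The brain count (0) was 1 left out and rescaled and 0 to 1 with 1 left out.

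Uncalled members changed sign as follows, and the cause was not tested. With length correction, Meis1 had 0.05 at 24 h, 0.13 at 144 h and 0.08 for the difference, Pax6 had 0.09 at 24 h, 0.19 at 144 h, 0.09 for the difference, -0.02 over time with vehicle and 0.07 with CT-179, and Zic2 had -0.01 at 144 h and -0.02 in brain. With TPM, Zic2 had -0.09 at 144 h and -0.06 in brain. Left out and rescaled, Pax6 had 0.01 at 24 h and 0.02 over time with CT-179, Zic1 0.01 over time with CT-179, Meis1 0.03 at 144 h and 0.04 for the difference, and Zic2 -0.01 in brain. With 1 library left out, Meis1 ranged from -0.29 to 0.01 at 144 h and from -0.25 to 0.05 for the difference, and in brain Barhl1 from -0.24 to 0.05, Pax6 from -0.24 to 0.08, Neurod1 from -0.16 to 0.01, Zic2 from -0.11 to 0.19 and Atoh1 from -0.35 to 0.06. At 0 to 2 implied reads a library, differences in Atoh1, Barhl1 and Neurod1 between cell groups were not detectable.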
